A study of Oryza sativa with 18 samples.

Results

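The genes described here are 8 AP2-domain genes in rice callus, namely the 4 *BABY BOOM* genes *OsBBM1* to *OsBBM4*, *CRL5* (*CROWN ROOTLESS5*) and 3 *PLETHORA*-type genes given by their locus numbers. They were chosen by locus, by a rule that used no measured value, though with earlier results of these data known. They make up 8 of the 38335 genes in the pCPL table and of the 38428 in the pOE table. The YIL25 table used here covers only chromosomes 1 and 2 and the start of chromosome 3, and *OsBBM2* and *OsBBM3* were the 2 of the 8 that it holds. Each of the 8 loci had 1 entry in every table that held it.

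*BABY BOOM* and *PLETHORA* proteins form one branch of the plant AP2 transcription factors and carry a pair of AP2 DNA-binding domains. In *Arabidopsis*, *PLETHORA* genes act downstream of auxin to keep the root stem cell niche and pattern the root, several of them prime callus for shoot regeneration, and *BABY BOOM* can turn somatic cells into embryos when it is overexpressed. In rice, *OsBBM1* is expressed from the paternal genome after fertilization, is able to start embryo development in the egg cell, and acts redundantly with *OsBBM2* and *OsBBM3* in the embryo, while *CRL5* is an auxin-responsive gene needed for crown root initiation.

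RNA-seq was made from scutellum-derived callus grown in the dark on a 2,4-D medium and subcultured for 21 days, in 18 libraries that formed 6 groups of 3. The question was how transcripts differ with *BOC1*, a gene that affects callus browning. YIL25 is an introgression line with wild rice (*Oryza rufipogon*) segments, among them its *BOC1* allele, in the *indica* cultivar Teqing, and was set against Teqing1. The complementation line pCPL carries a genomic fragment of YIL25 with the *BOC1* promoter and gene in Teqing and was set against Teqing2, and the overexpression line pOE carries the *BOC1* coding sequence of YIL25 behind the *Ubiquitin* promoter in Teqing and was set against Teqing3. Teqing1, Teqing2 and Teqing3 are untransformed callus of the same cultivar. YIL25 holds further wild rice segments besides that with *BOC1*. The study places its segments on the short arms of 3 chromosomes, among them chromosomes 2 and 3. Whether genes named below lie in a segment was not checked. No source used here says whether the 3 libraries of a transgenic group came from 1 or several transformants. The study describes the 3 libraries of a group as biological replicates, without saying what separated them, and p-values measure the spread between these libraries.

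Reads over genes came to 16620557 to 19739116 per library in pCPL and Teqing2, and to 20178993 to 26298032 in pOE and Teqing3. In YIL25 and Teqing1 the library size behind the values was 35443317 to 43391808 reads, of which the part of the genome in the table took 12466734 to 15381667. Levels are in FPKM, fragments scaled to gene length and to a library size, so that genes can be compared with each other within a library. That size was below the reads over genes in pCPL and Teqing3 and above them in Teqing2 and pOE. It was 24935021 against 26298032 reads in Teqing3 replicate 1, and 21493502 against 20178993 in pOE replicate 1. *BOC1* itself was 101.5 ± 1.38 FPKM in pCPL and 57.6 ± 0.324 in Teqing2, and 579 ± 4.42 in pOE and 65.5 ± 2.65 in Teqing3 (mean ± SD, n = 3), and was not analysed in YIL25. Values below are mean ± SD over 3 libraries, and changes are log2 fold changes on log2(FPKM + 1) from limma, of a line over its own Teqing. A gene is said to have risen or fallen at an adjusted p under 0.05, and is called at a 2-fold change and an adjusted p under 0.001. In bulk callus, fewer cells that express a gene and less RNA per cell cannot be told apart.

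Of the 8 genes, 7 were detected at 2.19 FPKM or more in every library that measured them, and *CRL5* was near 0. The genes lie on 7 chromosomes of IRGSP-1.0. *OsBBM1* (LOC_Os11g19060) is at 10863409 to 10868622 on chromosome 11, *OsBBM2* (LOC_Os02g40070) at 24264204 to 24266297 on chromosome 2, *OsBBM3* (LOC_Os01g67410) at 39141130 to 39145472 on chromosome 1 and *OsBBM4* (LOC_Os04g42570) at 25182303 to 25186566 on chromosome 4. *CRL5* (LOC_Os07g03250) is at 1299598 to 1304299 on chromosome 7. The *PLETHORA*-type genes are LOC_Os04g55970 at 33341978 to 33346528 on chromosome 4, LOC_Os06g44750 at 27025485 to 27029339 on chromosome 6 and LOC_Os03g56050 at 31922037 to 31925719 on chromosome 3.

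In Teqing2 the order of the mean levels was LOC_Os04g55970 at 168.9 FPKM, *OsBBM2* at 125.0, LOC_Os06g44750 at 97.3, *OsBBM1* at 83.9, *OsBBM3* at 15.3, *OsBBM4* at 7.73, LOC_Os03g56050 at 2.72 and *CRL5* at 0.348. No neighbours in that order overlapped between their libraries. In Teqing3 LOC_Os04g55970 was again highest at 71.5 FPKM, followed by *OsBBM2* at 46.2, *OsBBM1* at 42.7, LOC_Os06g44750 at 34.3, *OsBBM4* at 8.16, *OsBBM3* at 6.11, LOC_Os03g56050 at 2.29 and *CRL5* at 0.0308, with no overlap between neighbours either. The 4 genes *OsBBM1*, *OsBBM2*, LOC_Os04g55970 and LOC_Os06g44750 thus held the top places in both Teqing groups. In pCPL the order was LOC_Os04g55970, *OsBBM1*, *OsBBM2*, LOC_Os06g44750, *OsBBM3*, *OsBBM4*, LOC_Os03g56050 and *CRL5*, and the libraries of *OsBBM3* and *OsBBM4* overlapped. In pOE *OsBBM2* stood first at 76.3 FPKM and LOC_Os04g55970 next at 68.1, and neighbours overlapped for LOC_Os06g44750 with *OsBBM1* and for *OsBBM4* with *OsBBM3*.

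**Figure D1:**
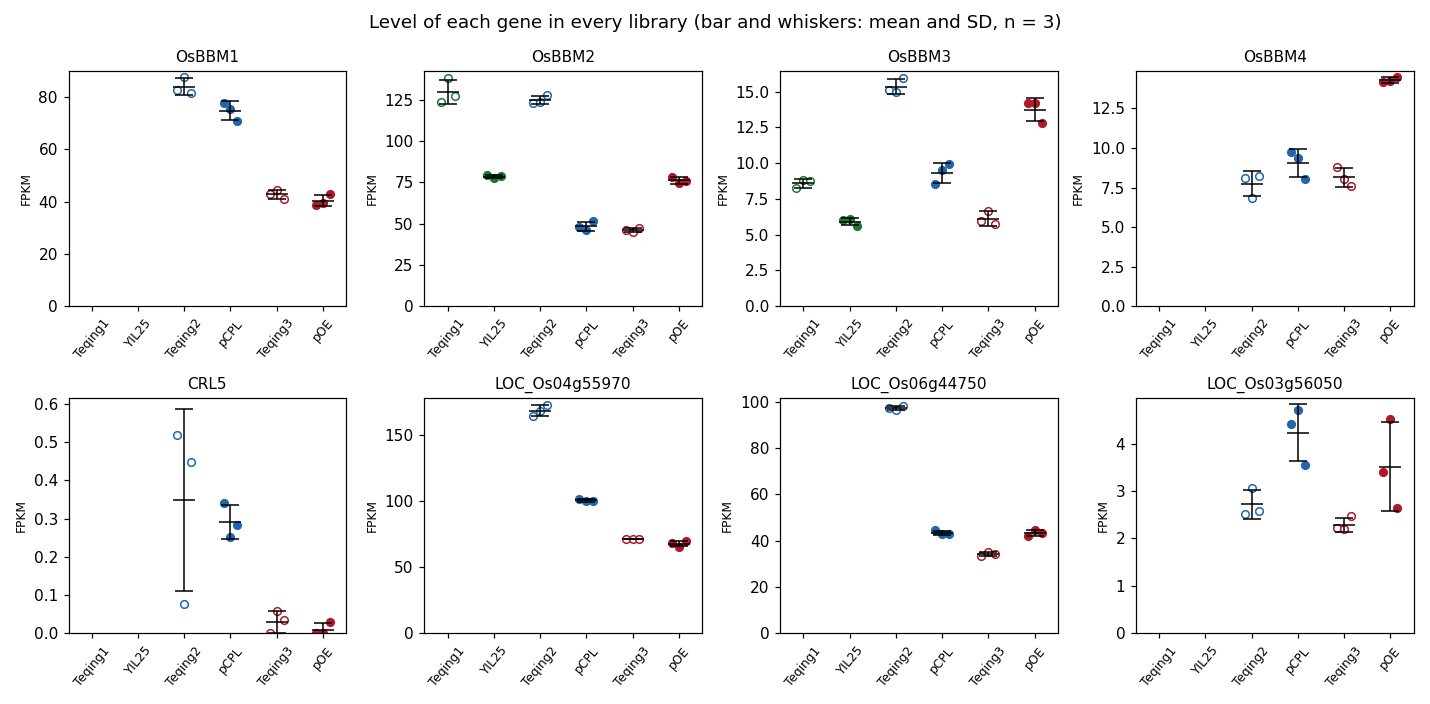
Level of each of the 8 genes in FPKM (y axis, from 0, own scale in each panel) in every library of the 6 groups (x axis). Open points are Teqing libraries, filled points the line set against them, bars and whiskers the mean and SD of 3 libraries, and groups with no point are not in the YIL25 table. *OsBBM2* lies below Teqing in YIL25 and pCPL and above it in pOE, and the open points of Teqing2 lie well above those of Teqing3 for *OsBBM1*, *OsBBM2*, *OsBBM3*, LOC_Os04g55970 and LOC_Os06g44750.

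In pCPL the abundant *BABY BOOM* and *PLETHORA* genes fell, except that *OsBBM1* fell only slightly. Of the 7 genes tested, 5 fell, LOC_Os03g56050 rose and *OsBBM4* did not pass the test. Among all 21659 genes tested, 35.6% fell and 35.0% rose at the same threshold, so that a change as such was common in this comparison. The 2 genes called, both lower, were *OsBBM2* and LOC_Os06g44750, against 5.97% of all tested genes called lower. The median change of the 7 tested genes was -0.67, against -0.01 for all tested genes.

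*OsBBM2*, which encodes one of the embryo-expressed *BABY BOOM* proteins of rice, was 48.0, 46.1 and 51.4 FPKM in the 3 pCPL libraries and 123.3, 123.8 and 127.8 in Teqing2. The groups lay far apart, with pCPL at 38.8% of Teqing2. Its change of -1.35 (SE 0.0437, adjusted p = 7.50e-09) placed it in the lowest 2.6% of all tested genes. LOC_Os06g44750 was 44.5, 42.7 and 43.1 FPKM in pCPL and 97.4, 96.3 and 98.3 in Teqing2. No library of either group came near the other group, and the change was -1.15 (SE 0.0345, adjusted p = 4.73e-09).

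LOC_Os04g55970, the most abundant of the 8 genes, was 101.8, 100.6 and 100.01 FPKM in pCPL and 164.9, 168.7 and 173.0 in Teqing2. It fell to 59.7% of the Teqing2 level without reaching 2-fold (change -0.74, SE 0.0307, adjusted p = 3.62e-08). *OsBBM3* was 8.52, 9.53 and 9.92 FPKM in pCPL and 15.1, 15.004 and 15.9 in Teqing2. Expressed far below *OsBBM2*, it fell by about the same share as LOC_Os04g55970, to 60.7% of Teqing2 (change -0.67, SE 0.0713, adjusted p = 2.29e-05).

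*OsBBM1*, whose product can start an embryo in the egg cell, was 77.8, 75.6 and 70.8 FPKM in pCPL and 82.7, 87.5 and 81.7 in Teqing2. The groups did not overlap, but pCPL stood at 89.0% of Teqing2, so that the fall was small (change -0.17, SE 0.0449, adjusted p = 0.00805). *OsBBM4* was 9.76, 9.38 and 8.05 FPKM in pCPL and 8.11, 6.83 and 8.25 in Teqing2. Its groups overlapped, and the change of 0.21 (95% interval -0.01 to 0.42, adjusted p = 0.084) did not pass. It was 0.13 (adjusted p = 0.265) without Teqing2 replicate 2, 0.12 (adjusted p = 0.294) with the length trend removed, and 0.28 (adjusted p = 0.0356) without pCPL replicate 3. LOC_Os03g56050, the lowest of the tested genes, went the other way and was 4.42, 4.70 and 3.55 FPKM in pCPL and 2.51, 3.06 and 2.58 in Teqing2. It rose without overlap between groups (change 0.49, SE 0.119, adjusted p = 0.00472).

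*CRL5* was close to absent in this callus and was not tested, since its mean was at most 1 FPKM in every group. It had 8, 6 and 7 reads in pCPL and 15, 2 and 13 in Teqing2. The Teqing2 libraries covered the pCPL range on both sides. In pOE *CRL5* had 0, 0 and 1 reads and in Teqing3 0, 2 and 1.

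In pOE the direction was the opposite one for 3 of the genes that fell in pCPL. *OsBBM2*, *OsBBM3*, *OsBBM4*, LOC_Os06g44750 and LOC_Os03g56050 rose, 5 of the 7 tested, and *OsBBM1* and LOC_Os04g55970 did not pass the test. Of all 22122 genes tested, 35.3% rose and 36.8% fell. The 1 gene called was *OsBBM3*, higher, against 6.95% of all tested genes called higher. The median change of the 7 genes was 0.44, and that of all tested genes -0.00.

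*OsBBM3* was 14.2, 14.2 and 12.8 FPKM in pOE and 5.94, 6.68 and 5.71 in Teqing3. The groups were well separated, and the pOE mean was 2.24 times that of Teqing3 (change 1.05, SE 0.0821, adjusted p = 2.90e-06). *OsBBM4* was 14.2, 14.3 and 14.5 FPKM in pOE and 8.81, 8.04 and 7.62 in Teqing3. It rose 1.75-fold (change 0.74, SE 0.0717, adjusted p = 1.21e-05), and its pOE libraries were the highest of all 12 in which it was measured.

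*OsBBM2* was 78.4, 74.4 and 76.1 FPKM in pOE and 46.0, 45.2 and 47.4 in Teqing3. It rose 1.65-fold with no overlap (change 0.71, SE 0.0399, adjusted p = 3.09e-07). LOC_Os06g44750 was 41.9, 44.4 and 43.2 FPKM in pOE and 33.3, 35.2 and 34.4 in Teqing3. This rise was smaller, 1.26-fold (change 0.32, SE 0.0447, adjusted p = 1.42e-04), and was 0.50 with voom on the recovered reads.

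LOC_Os03g56050 was 3.39, 4.51 and 2.64 FPKM in pOE and 2.21, 2.19 and 2.46 in Teqing3. The pOE libraries were scattered, and the rise (change 0.44, SE 0.152, adjusted p = 0.0264) was lost when Teqing3 replicate 1 or 2 or pOE replicate 1 or 2 was left out, with an adjusted p of 0.0885 and a change of 0.28 without pOE replicate 2. The adjusted p was 0.054 when no filter on low genes was applied, while voom on the recovered reads gave a larger change of 0.75 (adjusted p = 3.95e-04) and removing the length trend 0.58 (adjusted p = 0.00719).

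*OsBBM1* was 38.8, 39.5 and 42.7 FPKM in pOE and 42.8, 44.4 and 40.9 in Teqing3. Its groups overlapped, and the change was -0.08 (95% interval -0.20 to 0.04, adjusted p = 0.192), with the sign turned to 0.082 by voom on the recovered reads and to 0.029 by removing a trend on gene length. LOC_Os04g55970 was 68.2, 65.8 and 70.2 FPKM in pOE and 71.6, 71.2 and 71.8 in Teqing3. All pOE libraries were below all Teqing3 libraries, but the change of -0.07 (95% interval -0.16 to 0.02, adjusted p = 0.122) did not pass, and voom on the recovered reads gave 0.096 with an adjusted p of 0.0251, and removing the length trend gave 0.050. With voom the median of all genes moved from -0.00 to 0.17 in this comparison, and both values lie below that median. The groups of 6 of the 7 tested genes did not overlap in pOE, where the same held for 75.1% of all tested genes, nor did those of 6 in pCPL, against 74.2%.

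**Figure D2:**
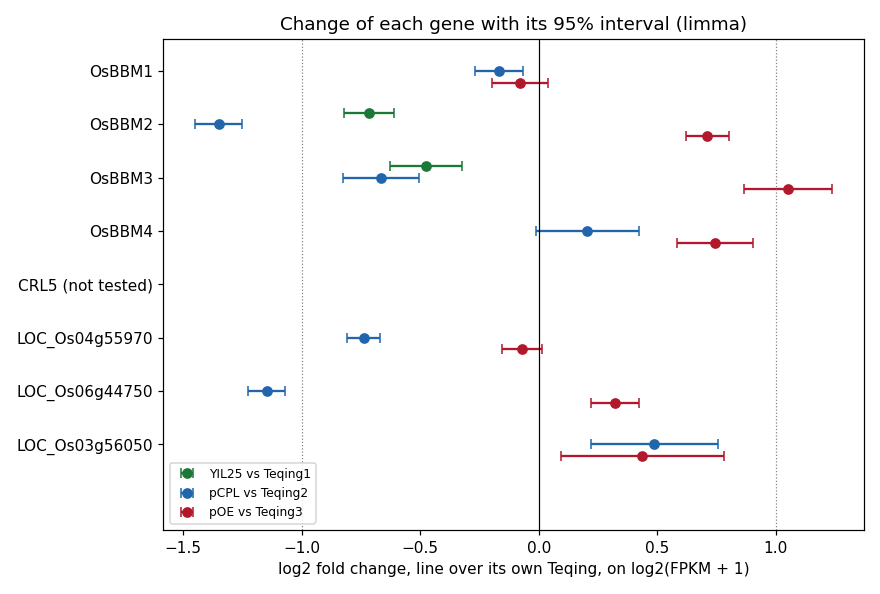
Change of each gene, as the log2 fold change of a line over its own Teqing on log2(FPKM + 1) (x axis), with its 95% interval from limma. Each row is a gene, colours are the 3 comparisons, and dotted lines mark a 2-fold change. *OsBBM2* and LOC_Os06g44750 in pCPL lie beyond -1, *OsBBM3* in pOE lies beyond 1, and the intervals of *OsBBM1* and LOC_Os04g55970 in pOE and of *OsBBM4* in pCPL cross 0.

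In YIL25 both measured genes fell. *OsBBM2* was 79.6, 77.5 and 78.6 FPKM in YIL25 and 123.8, 138.0 and 127.3 in Teqing1. It stood at 60.6% of Teqing1, with wide separation of the groups (change -0.71, SE 0.0440, adjusted p = 1.33e-05). *OsBBM3* was 6.02, 6.07 and 5.60 FPKM in YIL25 and 8.23, 8.82 and 8.74 in Teqing1. It stood at 68.6% of Teqing1, and again no library overlapped, as for 45.2% of all tested genes that were lower without overlap (change -0.48, SE 0.0636, adjusted p = 5.22e-04).

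Neither gene was called by limma, although both had an adjusted p under 0.001 and missed only the 2-fold threshold, and 21.1% of the 8196 genes tested in this table were called. Of all tested genes 43.2% fell at an adjusted p under 0.05, so that the falls of *OsBBM2* and *OsBBM3* were in the common direction. The median of all tested genes was -0.13, and median-of-ratios scaling moved it to 0.05. With that scaling *OsBBM2* was at -0.52 (adjusted p = 9.54e-05) and *OsBBM3* at -0.30 (adjusted p = 0.00516), still below the median.

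The changes in the 3 lines were then compared directly, each within its own table. Between pCPL and pOE, the difference of the changes was -2.06 for *OsBBM2* (95% interval -2.19 to -1.94, adjusted p = 8.45e-13). It was -1.72 for *OsBBM3* (95% interval -1.94 to -1.49, adjusted p = 2.93e-09) and -1.47 for LOC_Os06g44750 (95% interval -1.58 to -1.36, adjusted p = 7.48e-12). These 3 genes fell in pCPL and rose in pOE. LOC_Os04g55970 differed by -0.67 (adjusted p = 7.62e-09), since it fell in pCPL and did not pass in pOE. *OsBBM4* differed by -0.54 (adjusted p = 0.00106), with both changes on the positive side.

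*OsBBM1* and LOC_Os03g56050 were the 2 tested genes for which no difference between pCPL and pOE was found. The difference was -0.09 for *OsBBM1* (95% interval -0.24 to 0.07, adjusted p = 0.277) and 0.05 for LOC_Os03g56050 (95% interval -0.38 to 0.48, adjusted p = 0.824), so that for the latter a difference of moderate size would not have been seen. The other 5 of 7 passed, where 77.0% of the 19898 genes tested in both tables did.

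The fall of *OsBBM2* was smaller in YIL25 than in pCPL, by 0.64 (95% interval 0.50 to 0.77, adjusted p = 3.01e-07), and that of *OsBBM3* could not be told from it (difference 0.19, 95% interval -0.02 to 0.40, adjusted p = 0.102). With median-of-ratios scaling the *OsBBM3* difference was 0.36 (adjusted p = 0.00438). At an adjusted p under 0.05, 65.6% of all genes differed between YIL25 and pCPL. Against pOE, YIL25 differed by -1.43 for *OsBBM2* (adjusted p = 4.25e-12) and by -1.53 for *OsBBM3* (adjusted p = 1.90e-09), where 81.3% of all genes differed.

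The 3 Teqing groups, callus of 1 cultivar on 1 protocol, did not hold the same levels of these genes. The tables were normalized separately, so these levels carry no test. *OsBBM2* was 129.7 ± 7.43 FPKM in Teqing1, 125.0 ± 2.49 in Teqing2 and 46.2 ± 1.09 in Teqing3. *OsBBM3* was 8.60 ± 0.317, 15.3 ± 0.516 and 6.11 ± 0.505 FPKM in the same order. Teqing2 was thus close to Teqing1 for *OsBBM2* and not for *OsBBM3*, and Teqing3 was lowest for both.

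The Teqing2 mean was 1.97 times the Teqing3 mean for *OsBBM1*, 2.71 times for *OsBBM2*, 2.51 times for *OsBBM3*, 2.36 times for LOC_Os04g55970 and 2.84 times for LOC_Os06g44750. The 3 low genes went otherwise. *OsBBM4* was about level, at 0.948 times, LOC_Os03g56050 stood at 1.19 times, and *CRL5*, with 30 reads in Teqing2 and 3 in Teqing3 over 3 libraries each, rested on too few reads for a ratio. Over all 21280 genes shared by the tables, the median difference of Teqing3 from Teqing2 was 0.01 on the log2 scale.

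For these 5 genes the gap exceeded the changes in the lines, and the direction of the changes was read against it. Against Teqing3, pCPL would stand at 0.79 for *OsBBM1*, 0.067 for *OsBBM2*, 0.54 for *OsBBM3*, 0.49 for LOC_Os04g55970 and 0.33 for LOC_Os06g44750, each with its sign turned. Against Teqing2, pOE would stand at -0.71 for *OsBBM2*, -0.15 for *OsBBM3* and -1.16 for LOC_Os06g44750, likewise with the sign turned. *OsBBM1* and LOC_Os04g55970, which did not pass in pOE against Teqing3, would stand at -1.04 and -1.30 against Teqing2, with the sign kept. Of the 7 tested genes, only *OsBBM4* (0.13 for pCPL and 0.81 for pOE) and LOC_Os03g56050 (0.66 and 0.26) were positive against both Teqing groups in both lines. For the 8 values with a turned sign the direction thus depended on the Teqing group used, and what set the Teqing groups apart was not tested. Set side by side, again across tables and with no test, pOE was above pCPL by 0.64 for *OsBBM2*, 0.51 for *OsBBM3* and 0.61 for *OsBBM4* on the log2 scale. The values of pOE minus pCPL were -0.87 for *OsBBM1*, -0.56 for LOC_Os04g55970 and -0.22 for LOC_Os03g56050, and LOC_Os06g44750 was close, at 43.4 ± 0.95 FPKM in pCPL and 43.2 ± 1.25 in pOE.

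Ratios between 2 of the genes within a library do not depend on how a table was scaled. *OsBBM2* was 1.49 ± 0.0758 times *OsBBM1* in Teqing2 and 0.651 ± 0.0650 times in pCPL. It was 1.08 ± 0.0707 times *OsBBM1* in Teqing3 and 1.89 ± 0.121 times in pOE. The 4 groups did not overlap, so *OsBBM2* outweighed *OsBBM1* in every group but pCPL, and most in pOE.

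The ratio of LOC_Os06g44750 to LOC_Os04g55970 moved the same way. It was 0.577 ± 0.0125 in Teqing2, 0.431 ± 0.00622 in pCPL, 0.480 ± 0.0142 in Teqing3 and 0.635 ± 0.0346 in pOE. The pCPL libraries were lowest and the pOE libraries highest of the 12, with both Teqing groups between them. For this pair and for *OsBBM2* with *OsBBM1*, the place of pCPL below and pOE above therefore held against either Teqing group. It did not hold for LOC_Os06g44750 relative to *OsBBM1*. That ratio was 1.16 ± 0.0538 in Teqing2, 0.582 ± 0.0230 in pCPL, 0.804 ± 0.0328 in Teqing3 and 1.07 ± 0.0576 in pOE. There pCPL lay below both Teqing groups, while pOE lay above Teqing3 and overlapped Teqing2. Nor did it hold for LOC_Os04g55970 relative to *OsBBM1*, at 2.01 ± 0.0975 in Teqing2, 1.35 ± 0.0552 in pCPL, 1.68 ± 0.0771 in Teqing3 and 1.69 ± 0.0602 in pOE. For that ratio pCPL again lay below both Teqing groups, while pOE lay below Teqing2 and overlapped Teqing3.

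*OsBBM3* relative to *OsBBM1* was 0.183 ± 0.0119 in Teqing2, 0.125 ± 0.0153 in pCPL, 0.143 ± 0.00643 in Teqing3 and 0.341 ± 0.0365 in pOE. The pOE libraries stood clear of the others, while pCPL reached 0.140 and Teqing3 started at 0.139. *OsBBM4* relative to *OsBBM1* was 0.0924 ± 0.0125, 0.121 ± 0.00639, 0.191 ± 0.0131 and 0.355 ± 0.0139 in the same order of groups, rising above its own Teqing in both lines.

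**Figure D3:**
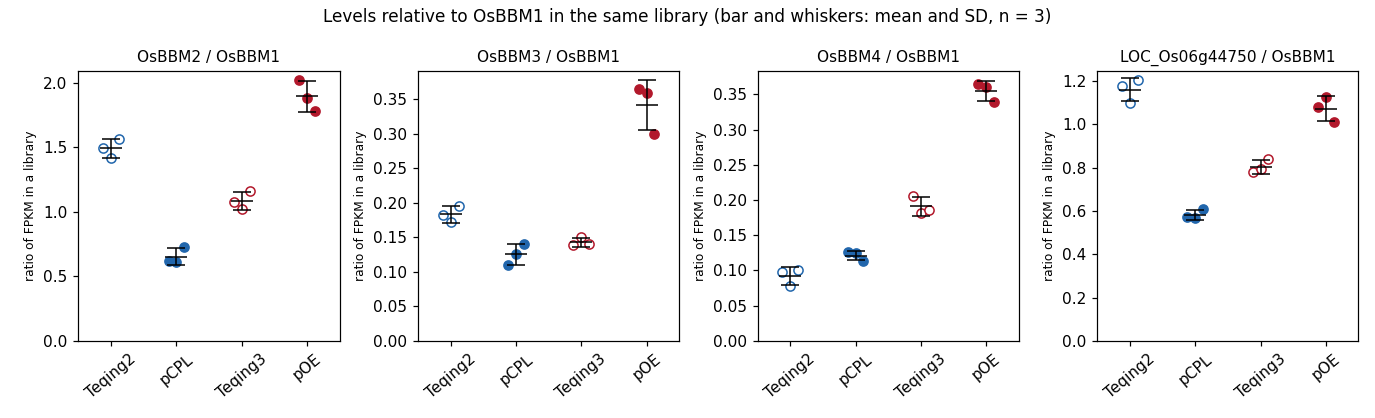
Level of *OsBBM2*, *OsBBM3*, *OsBBM4* and LOC_Os06g44750 divided by that of *OsBBM1* in the same library (y axes, from 0) in the 12 libraries of the pCPL and pOE comparisons (x axis). Open points are Teqing, filled points the line, and bars and whiskers the mean and SD of 3 libraries. The ratio of *OsBBM2* is lowest in pCPL at 0.651 and highest in pOE at 1.89.

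*OsBBM2* and *OsBBM3* could be set against each other in all 6 groups. The ratio of *OsBBM2* to *OsBBM3* ran from 14.6 to 15.6 in Teqing1 and from 12.8 to 14.03 in YIL25. It ran from 8.02 to 8.25 in Teqing2 and from 4.84 to 5.63 in pCPL, and from 6.77 to 8.29 in Teqing3 and from 5.24 to 5.95 in pOE. In each line the ratio lay below its own Teqing without overlap, although both genes fell in YIL25 and pCPL and both rose in pOE.

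Summed over the 8 genes, the level was 501.3 ± 6.74 FPKM in Teqing2, 290.3 ± 4.26 in pCPL, 211.3 ± 1.45 in Teqing3 and 259.4 ± 2.57 in pOE. LOC_Os04g55970 made up 33.7% of the sum in Teqing2, 34.7% in pCPL and 33.8% in Teqing3, and 26.2% in pOE. *OsBBM2* made up 24.9%, 16.7%, 21.9% and 29.4% in the same order, and thereby replaced LOC_Os04g55970 as the largest part in pOE. *OsBBM4* went from 1.54% in Teqing2 to 3.12% in pCPL and from 3.86% in Teqing3 to 5.52% in pOE.

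Of the genes with a mean of at least 5 FPKM, those most like the 2 most abundant members over the 12 libraries of the pCPL and pOE comparisons were taken by Pearson correlation of log2(FPKM + 1), as a description among 14502 genes. The 12 points form 4 groups of 3, so that each value mostly compares group means. For LOC_Os04g55970 they were LOC_Os08g39390 (0.995), LOC_Os09g10760 (0.987) and LOC_Os08g37660 (0.987). For *OsBBM2* they were LOC_Os05g01600 (0.997), LOC_Os12g12360 (0.996) and LOC_Os05g05220 (0.995). LOC_Os12g12360 shows the pattern at a higher level than *OsBBM2* in Teqing2, with means of 279.4 FPKM there, 57.7 in pCPL, 53.7 in Teqing3 and 127.4 in pOE.

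Lists of other genes with roles near those of the *BABY BOOM* and *PLETHORA* genes were read beside them. Their changes are against each line's own Teqing, and the lists were not set against the other Teqing groups. Among 7 other genes of the AP2 subfamily, 2 rose and 3 fell in pCPL, and 4 fell in pOE while 3 did not pass. LOC_Os03g12950, an AP2 gene with no role given here, was called lower in both lines, at 7.89 ± 0.479 FPKM against 19.1 ± 1.74 in Teqing2 and at 2.19 ± 0.0217 against 8.78 ± 0.210 in Teqing3. LOC_Os03g07940, another, was called higher in YIL25 (75.4 ± 2.16 against 17.5 ± 4.44 FPKM) and lower in pOE (8.02 ± 0.752 against 35.7 ± 3.32). The list's median change was -0.00 in pCPL and -0.41 in pOE, where that of the 7 *BABY BOOM* and *PLETHORA* genes was -0.67 and 0.44.

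Auxin synthesis genes, which encode the TAA and YUCCA enzymes of the main auxin pathway, were tested for 7 of 11 in pCPL and pOE and for 5 in YIL25. In pCPL 2 rose, 1 fell and 4 did not pass, in pOE 4 rose and 3 did not pass, and in YIL25 1 rose and 4 fell. *OsYUC9* was called higher in pCPL (22 ± 1.12 against 10.2 ± 0.800 FPKM) and lower in YIL25 (8.17 ± 1.95 against 20.3 ± 0.669), so it moved against *OsBBM2* in one line and with it in the other. In Teqing3 *OsYUC9* was 27.4 ± 2.88 FPKM, above pCPL, so its direction in pCPL also depended on the Teqing group used. *OsYUC3* was called lower in YIL25 (1.97 ± 0.432 against 8.06 ± 0.353 FPKM). The medians were 0.00 in pCPL, 0.67 in pOE and -0.82 in YIL25.

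Among 10 crown root and root stem cell genes, 6 rose and 4 did not pass in pCPL, 3 rose and 6 fell in pOE, and all 3 tested in YIL25 were called lower. *OsWOX11*, a homeobox gene that promotes crown root emergence, was called higher in pCPL (22.2 ± 1.17 against 10.1 ± 0.912 FPKM). *CRL1* (LOC_Os03g05510), a LOB-domain gene needed for crown root initiation, was called lower in YIL25 (3.76 ± 0.484 against 12.2 ± 2.16 FPKM) and in pOE (12.4 ± 1.47 against 31.3 ± 2.49). *QHB*, the quiescent centre homeobox gene, was called lower in YIL25 (5.87 ± 0.634 against 13.1 ± 0.887 FPKM), as was the cytokinin response regulator gene *OsRR2* (0.919 ± 0.107 against 9.29 ± 0.859). The median change was 0.26 in pCPL, -0.31 in pOE and -1.46 in YIL25, opposite in sign to that of the *BABY BOOM* and *PLETHORA* genes in pCPL and pOE and of the same sign in YIL25, where the median of *OsBBM2* and *OsBBM3* was -0.60.

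Of 9 shoot and embryo regeneration genes, 5 were tested in pCPL, where 3 rose and 2 fell, and 6 in pOE, where 2 rose, 3 fell and 1 did not pass, and in YIL25 2 rose and 1 fell. *OsVP1*, the ABA-responsive B3 factor of seed maturation, was called higher in pCPL (72.7 ± 2.45 against 30.2 ± 1.93 FPKM). *OsGRF4*, a growth-regulating factor whose activity aids regeneration, was called higher in YIL25 (17.4 ± 0.465 against 4.0 ± 0.388 FPKM) and lower in pOE (0.535 ± 0.10 against 3.8 ± 0.184). In pCPL *OsGRF4* also fell, without being called, at 5.36 ± 1.20 against 9.75 ± 0.488 FPKM (change -0.77, adjusted p = 3.97e-04). The shoot meristem homeobox gene *OSH1* stayed below 1 FPKM in all 12 libraries of the pCPL and pOE comparisons.

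**Figure D4:**
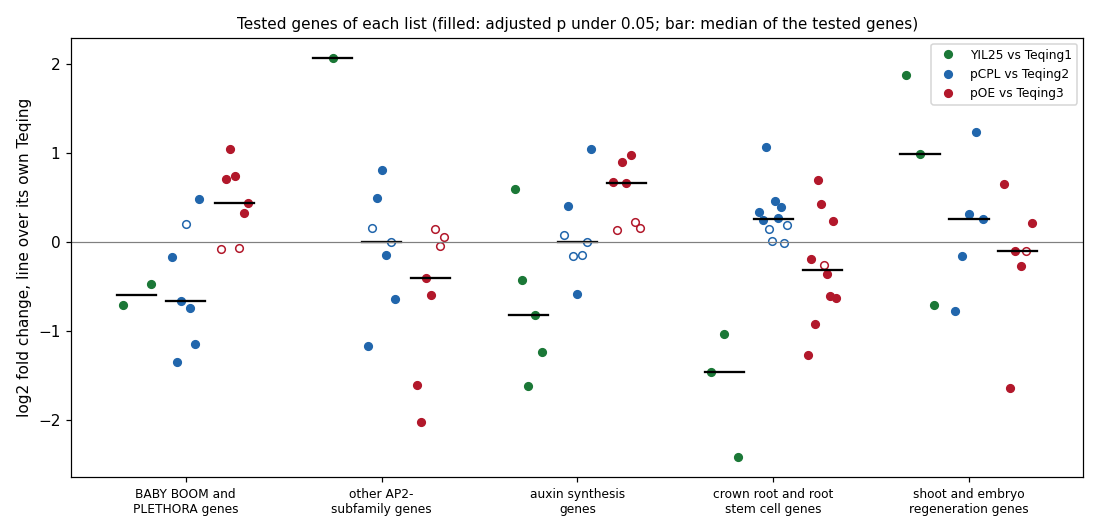
Log2 fold change of a line over its own Teqing (y axis) for the tested genes of the 8 *BABY BOOM* and *PLETHORA* genes and of 4 lists of other genes (x axis), in the 3 comparisons by colour. Each point is a gene, filled at an adjusted p under 0.05, and the bar is the median of the tested genes of the list, -0.67 in pCPL and 0.44 in pOE for the *BABY BOOM* and *PLETHORA* genes.

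The callus label was read against markers of other tissues. The 2 oleosin genes, made in embryo and scutellum, summed to 286.2 to 295.1 FPKM in pCPL, 136.5 to 156.3 in Teqing2, 74.5 to 87.7 in pOE and 53.1 to 65.3 in Teqing3. Both lines were above their own Teqing, whichever way the *BABY BOOM* genes went against it. The pOE sums lay below those of Teqing2, so the direction in pOE depended on the Teqing group used. Of 8 photosynthesis genes, 7 are in the pCPL and pOE tables, 1 of them at 0 in all libraries, and their sum was 15.8 to 17.0 FPKM in pCPL, 59.7 to 70.5 in Teqing2, 9.34 to 10.2 in pOE and 54.1 to 56.8 in Teqing3. Most of it in Teqing2 and Teqing3 was LOC_Os09g17740, and the Rubisco small subunit genes LOC_Os12g17600 and LOC_Os12g19470 were at or near 0. LOC_Os01g41710 went against the sum in pOE and was called higher there, at 3.26 ± 0.616 FPKM against 0.507 ± 0.136 in Teqing3 (change 1.49, adjusted p = 1.43e-05). The 2 photosynthesis genes of the YIL25 table summed to 11.03 to 12.49 FPKM in YIL25 and 11.42 to 12.99 in Teqing1. The 4 seed storage genes summed to at most 7.59 FPKM with 2 of them at 0 throughout, and the root gene *RCc3* was at most 0.157 FPKM. The part of these tissues in the results was not tested.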

How the data were processed

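According to the submitters' notes and the study's methods, the authors mapped RNA-seq reads to IRGSP-1.0 with TopHat2 (CASAVA 1.8, bcl2fastq and Cufflinks are named too). The authors deposited FPKM per gene in 3 tables, 1 for each line with its own Teqing, each normalized separately. The fold changes and p-values of the authors' own comparisons stand in these tables and were not used. No source used here gives the program behind their tests. The YIL25 table holds 65535 entries that cover part of the genome.

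Each line was fitted against its own Teqing with limma 3.58.1 (trended prior) in R 4.3.3 on log2(FPKM + 1), on genes whose mean exceeded 1 FPKM in at least 1 of the groups compared. p-values are two-sided and Benjamini-Hochberg adjusted over all genes tested. Since 1 FPKM was added, a fold change of a low gene is understated. Differences between lines are interaction contrasts over genes tested in both tables. The same code was checked on simulated data. With 3 libraries against 3, an exact permutation test of a single gene cannot reach a p under 0.05, so no such test was made.

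Gene length times FPKM, in the tables of pCPL and pOE, gave whole reads within 0.05 for 100% of values below 20 reads, and 93.13% to 94.67% in the YIL25 table, with lengths taken from the other tables. The reads behind each value of the pCPL and pOE tables were recovered in this way. Replicates of pCPL, Teqing2, pOE and Teqing3 differed by more than read sampling, at a chi-squared of 1.96 to 4.31 per gene. This was not run on YIL25 and Teqing1. Intervals cover the spread between libraries.

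The members and the lists were chosen with earlier results of these data known, and gene names other than those in the tables were given by locus number from general knowledge. Named were all 8 members, *BOC1*, from each list up to 3 genes per direction and comparison that passed 2-fold and an adjusted p under 0.001, any gene that a small count turned on, and, for the 2 most abundant members, the 3 most alike genes. The alternatives tried were a pseudocount of 0.1, a 5 FPKM filter, none at all, median-of-ratios scaling, a threshold of 0.05 with no fold, a replicate block, removal of a loess trend on gene length (span 0.3), voom on the recovered reads and leaving out each library. After seeing the data, each transgenic line was also set against the Teqing libraries of the other. The RefSeq gene table used matched 0 of the 8 loci by identifier.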

Additional observations from a re-analysis of the deposited data

Results flagged for a closer look

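There were 8 differences between the changes in 2 lines that passed an adjusted p under 0.05. The same threshold was passed by 77.0% of all genes between pCPL and pOE, 65.6% between YIL25 and pCPL and 81.3% between YIL25 and pOE. Those of *OsBBM1* and LOC_Os03g56050 between pCPL and pOE and of *OsBBM3* between YIL25 and pCPL did not pass. Between pCPL and pOE, each against its own Teqing, the difference was -2.06 for *OsBBM2*, -1.72 for *OsBBM3*, -0.54 for *OsBBM4*, -0.67 for LOC_Os04g55970 and -1.47 for LOC_Os06g44750. Between YIL25 and pCPL it was 0.64 for *OsBBM2*. Between YIL25 and pOE it was -1.43 for *OsBBM2* and -1.53 for *OsBBM3*. The level of *OsBBM2*, *OsBBM3*, LOC_Os04g55970 and LOC_Os06g44750 was lower in Teqing3 than in Teqing2, as given above. Each difference between pCPL and pOE holds both the gap between these lines and that between their Teqing groups. Teqing3 minus Teqing2 was -1.42 for *OsBBM2*, -1.20 for *OsBBM3*, 0.07 for *OsBBM4*, -1.23 for LOC_Os04g55970 and -1.48 for LOC_Os06g44750 on the log2 scale. In the same order, pOE minus pCPL was 0.64, 0.51, 0.61, -0.56 and -0.009. Both sets of values carry no test, and what set the Teqing groups apart was not tested.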

How the results depend on the processing

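A threshold of 0.05 with no fold called 2 of 2 tested members in YIL25. It called 6 of 7 in pCPL and 5 of 7 in pOE. Among all genes tested, it called 5957 of 8196, 15284 of 21659 and 15955 of 22122 in the same order. All other planned settings left the counts within 1.5 times the values given. Median-of-ratios scaling could change little in pCPL and pOE, since its factor was the same in every library of a comparison (1.006 and 1.007). It was a check for YIL25 only. Leaving out each library in turn kept 0 of 2, 2 of 7 and 1 of 7 tested members called in YIL25, pCPL and pOE. Among all genes, 1361 to 1478, 2876 to 2975 and 3357 to 3465 were called in the same order. In pOE the sign turned for *OsBBM1*, to 0.029 without the length trend and 0.082 with voom, and for LOC_Os04g55970, to 0.050 and 0.096. For LOC_Os03g56050 the difference of the changes between pCPL and pOE ran from -0.094 to 0.205 over the libraries left out. *OsBBM4* in pCPL passed without pCPL replicate 3 (0.28, adjusted p = 0.0356) and ran down to 0.13 (adjusted p = 0.265) without Teqing2 replicate 2. Set against the Teqing of the other line, a comparison chosen after seeing the data, pCPL turned to 0.79 (*OsBBM1*), 0.067 (*OsBBM2*), 0.54 (*OsBBM3*), 0.49 (LOC_Os04g55970) and 0.33 (LOC_Os06g44750), and pOE to -0.71 (*OsBBM2*), -0.15 (*OsBBM3*) and -1.16 (LOC_Os06g44750). In pOE *OsBBM1* and LOC_Os04g55970 kept their sign, at -1.04 and -1.30. The causes of these turns were not tested.

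Same-numbered libraries did not deviate together (correlations -0.034 to 0.009), so the numbers do not pair them. The replicate block changed no call of the 8 genes, left 1268, 2981 and 3482 calls among all genes, and gave *OsBBM2* -0.71, -1.35 and 0.71 in YIL25, pCPL and pOE. Voom was not run on the YIL25 table, whose values gave fewer whole reads. *CRL5* had at most 15 reads per library and was not tested.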
